A study of Mus musculus with 38 samples.

Results

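The airway secretoglobins Scgb1a1, Scgb3a1 and Scgb3a2 were followed through 38 bulk RNA-seq libraries of mouse lung adenocarcinoma organoids. These 3 genes were named in advance and found by symbol, through the Ensembl identifiers of the count tables, among 55502 gene identifiers in all. Reads of Scgb1a1 were present in 29 of 38 libraries, of Scgb3a1 in 24 and of Scgb3a2 in 12.

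Each of the 8 organoid lines was grown in Matrigel, a gel of basement membrane, from 1 tumour of a mixed 129/B6 mouse. All lines carried KrasFSF-G12D, an oncogenic allele switched on by Flp recombinase, together with p53frt, which Flp removes, and Rosa-FSF-CreERT2, a Cre recombinase that acts once tamoxifen is bound. Double-floxed lines (1027B, 1027D and 1292B) had Foxa1flox and Foxa2flox, the Foxa2-floxed lines were 1267B and 1526C, and the Foxa1-floxed lines were 1552A, 1552B and 1552C. Cultures received ethanol as vehicle or 2 uM 4-hydroxytamoxifen (4-OHT) for 72 hours, in 5 and 5 double-floxed, 4 and 4 Foxa2-floxed and 6 and 6 Foxa1-floxed libraries. A hairpin experiment used line 1027B alone, with a scrambled hairpin (shScramble) or one against Nkx2-1 (shNKX2-1), each with vehicle or 4-OHT and 2 libraries in each of the 4 groups. No line without a floxed allele was included, so effects of 4-OHT or of Cre cannot be told apart from loss of the floxed gene. Repeat libraries of a line are not separate tumours, and p-values over them then measure the spread between these libraries, which may be technical. The labels leave out when RNA was collected.

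Secretoglobins are small secreted proteins of the airway lining. Scgb1a1, also called club cell secretory protein, is the most abundant product of club cells, the secretory cells of the bronchioles. Scgb3a1 is made by secretory cells of the larger airways, and Scgb3a2 is an early marker of the airway secretory lineage. The forkhead factors FOXA1 and FOXA2 and the lung lineage factor NKX2-1 are known to bind the promoters of secretoglobin genes, with C/EBP factors as partners in club cells.

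The promoter of Scgb3a1 is shown because each call made among the 3 genes at the chosen settings was of this gene. RefSeq places it on GRCm38.p6 at chr11:49663345-49663594 on the plus strand, the 250 bases before the RefSeq start at 49663595. Capitals mark matches to 3 motifs searched on both strands, namely TGTTTNC (forkhead), TCAAG (NKX2-1 core) and TTGCNNAA (C/EBP).
Scgb3a1 promoter: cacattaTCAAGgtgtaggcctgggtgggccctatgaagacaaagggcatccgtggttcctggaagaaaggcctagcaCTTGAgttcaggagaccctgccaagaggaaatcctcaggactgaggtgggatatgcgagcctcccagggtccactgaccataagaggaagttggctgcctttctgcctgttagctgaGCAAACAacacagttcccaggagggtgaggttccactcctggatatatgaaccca
The forkhead letters occurred once, as GCAAACA on the other strand, from 55 to 49 bases before the start. The NKX2-1 core occurred as TCAAG from 243 to 239 and as CTTGA, its reverse complement, from 172 to 168 bases before it, and the C/EBP letters had no match. No matches overlapped. Among 32817 RefSeq mouse promoters of this length, 17.84% held a forkhead match, 35.87% an NKX2-1 core match and 9.571% a C/EBP match. These matches are descriptions of letters and not of binding. The promoter table matched 1 of the 3 genes, so Scgb1a1 and Scgb3a2 are named only.

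Total counts ran from 18.3 to 32.0 M reads (megareads) per double-floxed library, from 18.5 to 33.2 M reads per single-floxed library and from 13.6 to 16.3 M reads per hairpin library. Mitochondrial transcripts took 11.7% of the counts in shNKX2-1 4-OHT replicate 2 and at most 4.30% in the others. The floxed genes were checked first, in CPM (counts per M of TMM-scaled library size; mean ± SD over libraries). In double-floxed organoids (n = 5 and 5) 4-OHT brought Foxa2 from 114 ± 47.6 down to 4.90 ± 1.47 CPM (adjusted p = 0.00151) and Foxa1 from 47.7 ± 28.7 down to 13.1 ± 3.46 CPM (adjusted p = 0.0284). Foxa2 went from 97.4 ± 23.2 down to 2.82 ± 1.00 CPM where Foxa2 alone was floxed (n = 4 and 4; adjusted p = 3.55e-09). Foxa1 went from 59.9 ± 16.1 down to 15.4 ± 1.27 CPM where Foxa1 alone was floxed (n = 6 and 6; adjusted p = 6.08e-07). Nkx2-1, the marker of lung lineage, was present in every library, at 93.9 CPM or more. Summed markers of alveolar type 2 cells, the cells that make surfactant, stood at 695 to 23200 CPM per library. The summed markers of fibroblasts stood at 4.38 CPM or less those of endothelium at 7.42 CPM or less, those of leukocytes at 5.32 to 52.6 CPM and those of basal cells at 0.527 to 223 CPM.

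Most reads of Scgb1a1 came from line 1552A, and most Scgb3a1 reads of organoids without a hairpin from line 1267B. Scgb1a1 (ENSMUSG00000024653, GRCm38 chromosome 19, 9083636 to 9087958, minus strand, 3 exons) had its highest group mean, 54.7 ± 87.0 CPM, in Foxa1-floxed vehicle libraries (n = 6). Line 1552A held 8728 of the 8910 Scgb1a1 counts of that group. Foxa1-floxed 4-OHT libraries followed at 18.9 ± 23.7 CPM (n = 6), and these 2 groups overlapped in range. Next came Foxa2-floxed vehicle at 1.20 ± 1.18 CPM (n = 4). Its highest library, at 2.27 CPM, lay just under the lowest Foxa1-floxed 4-OHT library, at 2.28 CPM. It overlapped Foxa1-floxed vehicle, which went down to 0.438 CPM. From there down to shNKX2-1 4-OHT and shScramble 4-OHT, with 0 reads each, every group overlapped its neighbour.

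Scgb3a1 (ENSMUSG00000064057, chromosome 11, 49663610 to 49665118, plus strand, up to 4 exons) had another order. Its highest group mean was 46.7 ± 58.9 CPM in Foxa2-floxed vehicle libraries (n = 4), all of it from line 1267B, since line 1526C held 0 reads in its 2 vehicle and 2 4-OHT libraries. The shNKX2-1 vehicle libraries, normalized separately, followed at 29.7 ± 8.53 CPM (n = 2), and then Foxa2-floxed 4-OHT at 9.17 ± 10.6 CPM (n = 4). Foxa1-floxed 4-OHT libraries stood at 2.90 ± 3.28 CPM, double-floxed vehicle at 1.65 ± 2.01 CPM, Foxa1-floxed vehicle at 0.888 ± 1.01 CPM and shScramble vehicle at 0.0675 ± 0.0954 CPM, each overlapping the next. All 3 groups of double-floxed cells given 4-OHT, with or without a hairpin, had 0 reads.

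Levels of different genes are compared here per length of transcript, and the higher gene was not the same in all groups. In Foxa1-floxed vehicle libraries the mean level of Scgb1a1 was 115 RPKM (CPM per kilobase of exon) and that of Scgb3a1 1.48 RPKM. In Foxa2-floxed vehicle libraries Scgb3a1 averaged 78.1 RPKM and Scgb1a1 2.52 RPKM, an order that came from line 1267B. In line 1526C Scgb3a1 was at 0, Scgb1a1 at 0.377 RPKM and Scgb3a2 at 0.766 RPKM. Scgb3a2 averaged 0.536 RPKM in Foxa2-floxed vehicle libraries, its highest group.

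**Figure D1:**
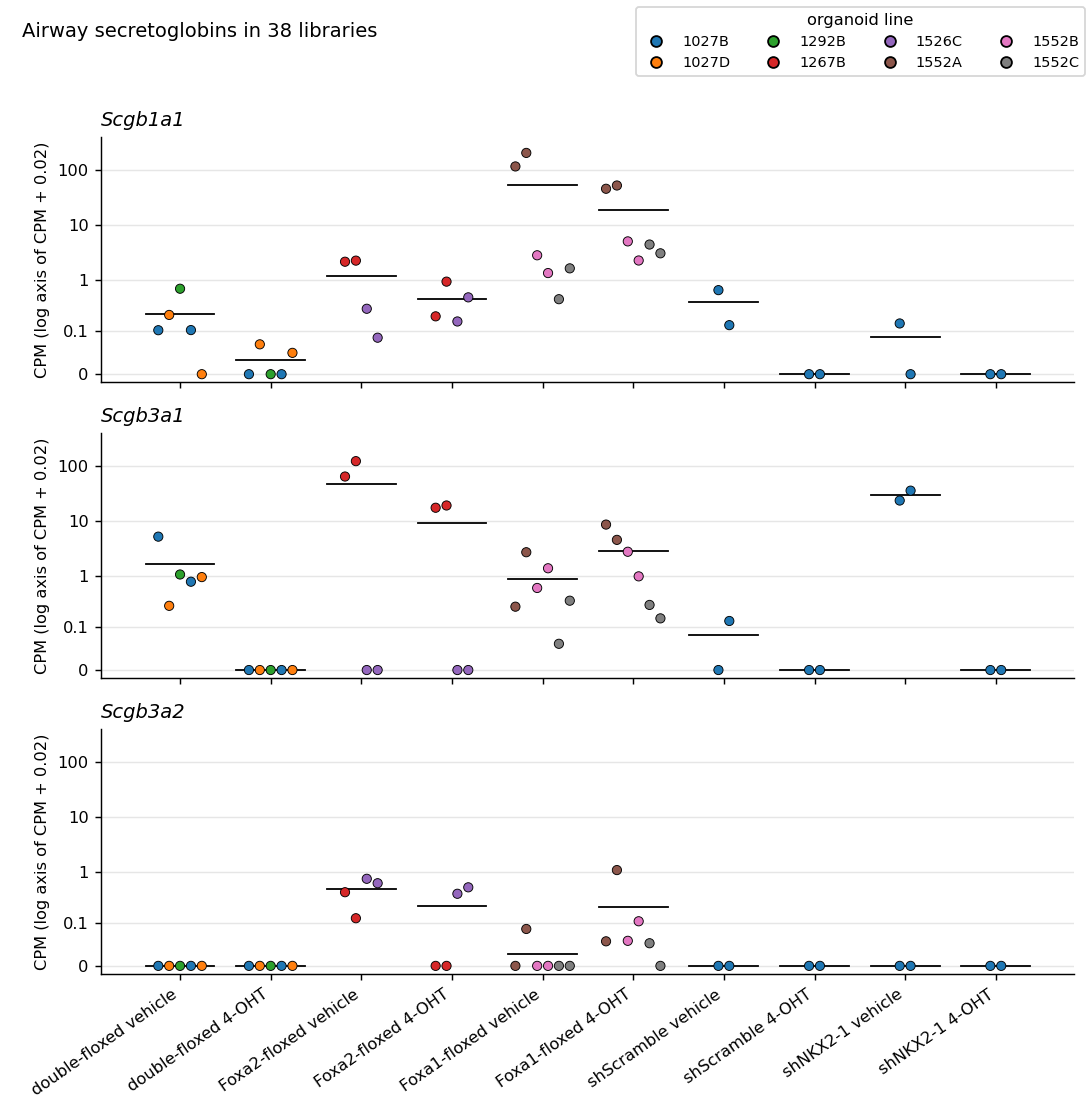
Level of each secretoglobin gene in each library, in TMM-scaled CPM on a log axis of CPM + 0.02, with 1 point per library coloured by organoid line and a bar at the group mean. Line 1552A stands above the other lines for Scgb1a1 (45.9 to 205 CPM) and line 1267B for Scgb3a1 (17.5 to 122 CPM), and Scgb3a1 is at 0 in every 4-OHT library of double-floxed cells.

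No read of Scgb3a1 was found in double-floxed organoids given 4-OHT. The vehicle libraries held 99 and 22 reads in line 1027B, 5 and 21 in line 1027D and 20 in line 1292B, and all 5 4-OHT libraries held 0. All 3 lines therefore went from reads to none, and the groups did not overlap. The pooled level was at least 60.3-fold lower with 4-OHT, with 3 counts over the group (0.0260 CPM) as the floor in place of 0. Such floors, and the counting intervals given further on, hold counting error alone, since reads carried no molecular identifiers and are not separate molecules. By edgeR's quasi-likelihood test the adjusted p was 0.0500031, just over the threshold of 0.05, and the decrease was therefore not called. Calls reached 3.90% of the 15198 genes tested, and 1.91% of the genes had every 4-OHT library below every vehicle library. Scgb3a1 was the only one of the 3 genes to be tested here, having passed the filter through the vehicle libraries, and it had an unadjusted p under 0.05, as did 20.3% of all genes. DESeq2 called it after adjustment (adjusted p = 3.56e-07). Over the 10 fits that each left out 1 library the edgeR adjusted p ran from 0.0568 to 0.106.

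Vehicle replicate 1, of line 1027B, held 5.22 CPM and the other vehicle libraries 0.272 to 1.06 CPM. Without it the lower bound was 29.9-fold and the adjusted p 0.0773. Library titles give 2 prefixes here, and the pattern was the same within each, with 99, 5 and 20 reads against 0 under prefix 17699 and 22 and 21 against 0 under prefix 17992. In bulk RNA, fewer cells that make a transcript and less transcript per cell cannot be told apart.

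Scgb1a1 was rare in the same organoids. Vehicle libraries held 2 and 3 reads in line 1027B, 4 and 0 in line 1027D and 13 in line 1292B, against 0 and 0, 1 and 1, and 0 with 4-OHT. The groups overlapped, through the vehicle library with 0 reads. The pooled level was 11.9-fold lower with 4-OHT (95% exact counting interval 2.93 to 105), with 13 of the 22 vehicle reads from the 1 library of line 1292B. The gene did not pass the filter on low counts, and without that filter its edgeR adjusted p was 0.127. Scgb3a2 had 0 reads in all 10 libraries.

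Other airway genes were tested beside them. Of 15 genes of airway mucus and surface fluid, 10 were tested, 3 were called lower and 0 higher, beside 3.90% of all genes called in either direction, and their median log2 change was -1.71 (all genes 0.02). The summed level of the list did not take 1 direction, with 1290 and 1390 CPM in vehicle and 1922 and 2835 CPM in 4-OHT libraries of line 1027B, against 896 and 885 and then 113 and 242 CPM in line 1027D and 1452 and 293 CPM in line 1292B. Lists of other cell types moved as well, in both directions. Of 11 alveolar type 2 markers 5 were called lower (median log2 change -1.84), and 2 of 5 tested ciliated cell markers (2.06), 1 of 6 basal cell markers (2.21) and 1 of 4 leukocyte markers (1.32) were called higher. Muc5b, a gel-forming mucin of the airways, fell from 493 ± 200 to 5.48 ± 6.04 CPM (adjusted p = 0.00599), and Muc5ac, a mucin of goblet cells, from 183 ± 131 to 7.65 ± 5.43 CPM (adjusted p = 0.0224). Creb3l1, a transcription factor of secretory cells, fell from 122 ± 20.2 to 2.06 ± 2.61 CPM (adjusted p = 0.0123).

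The club cell markers did not move as 1 group. Of 16 markers 12 were tested, with 1 called higher and 2 called lower, beside 3.90% of all genes called in either direction. Their median log2 change was 0.15. Cyp4b1, a cytochrome P450 of club cells, rose from 1.72 ± 1.51 to 32.2 ± 38.9 CPM (adjusted p = 0.0316). Selenbp1, a selenium-binding protein, fell from 825 ± 419 to 204 ± 215 CPM (adjusted p = 0.0345), and Upk3a, which marks a subset of club cells, from 2.46 ± 3.61 to 0.00575 ± 0.0129 CPM (adjusted p = 0.00768). Their summed level was 1527 to 2615 CPM in vehicle and 1672 to 3000 CPM in 4-OHT libraries. Of 9 genes listed as regulators of secretoglobins, 4 were called lower, beside the same 3.90% of all genes. Among the 4 were Foxa1 and Foxa2, the floxed genes themselves, whose decrease follows from the design. Cebpa, a C/EBP factor and also among them, fell from 148 ± 41.8 to 50.8 ± 16.4 CPM (adjusted p = 0.00626). Of 3 genes listed as binding partners of secretoglobins, 2 were tested and 0 called by edgeR. The part of these genes in the secretoglobin values was not tested.

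In Foxa2-floxed organoids both lines held reads of Scgb1a1 and Scgb3a2, and line 1267B alone held reads of Scgb3a1. Line 1267B held 1248 and 2910 Scgb3a1 reads with vehicle and 343 and 618 with 4-OHT, or 64.4 and 122 against 17.5 and 19.2 CPM. Both 4-OHT libraries lay below both vehicle libraries of that line, as they did for 11.9% of the genes tested by line, and the pooled level was 5.19-fold lower (95% exact counting interval 4.84 to 5.57). Line 1526C had no read in any of its libraries. The fit over both lines gave Scgb3a1 a log2 change of -2.33 ± 0.77 (SE) with adjusted p = 0.135. With the effect fitted in line 1267B alone, an analysis added after the data were seen, it was -2.35 ± 0.75 with adjusted p = 0.354, where 0.400% of the 17508 genes tested were called.

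Scgb1a1 stood at 42 and 54 reads with vehicle and 4 and 30 with 4-OHT in line 1267B, and at 7 and 2 against 5 and 13 in line 1526C. The pooled level was 3.39-fold lower with 4-OHT in line 1267B (interval 2.27 to 5.17) and 1.79 times the vehicle level in line 1526C (interval 0.762 to 4.51), so the 2 lines did not share a direction. Over both lines the adjusted p of this gene was 0.71. The test that the 2 lines differ in this effect gave adjusted p = 0.717.

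Scgb3a2 (ENSMUSG00000038791, chromosome 18, 43764289 to 43767399, plus strand, 3 transcripts) was sparse in both lines. It held 8 and 3 reads with vehicle and 0 and 0 with 4-OHT in line 1267B, and 18 and 17 against 12 and 14 in line 1526C. Every 4-OHT library was below every vehicle library of its own line, which held for 11.9% of genes in line 1267B and 26.6% in line 1526C. The pooled level was lower by at least 4.40-fold in 1267B and 1.51-fold in 1526C (95% exact counting interval 0.882 to 2.61). The log2 change was -1.40 ± 0.80 (adjusted p = 0.481). Of the 3 secretoglobins 0 were called by edgeR at the chosen settings, beside 3.43% of 16887 genes, and DESeq2 called 0. At an unadjusted p under 0.05 edgeR counted 1 of the 3, Scgb3a1, and 14.2% of all genes. Without the filter on low counts edgeR called Scgb1a1 (adjusted p = 0.0197) and Scgb3a1 (adjusted p = 1.07e-09). Their log2 changes hardly moved from those of the filtered fit. The share of all genes called without the filter is not printed here, so these calls cannot be set against it. The Scgb1a1 call is over both lines, and its pooled level was lower with 4-OHT in line 1267B but not in line 1526C.

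Among the mucus and surface fluid genes 14 of 15 were tested in these organoids, 3 were called lower and 0 higher, beside 3.43% of all genes, with a median log2 change of -0.98 (all genes -0.01). Of 11 alveolar type 2 markers 4 were called lower (median -1.10), and 2 of 6 basal cell markers (1.23) and 2 of 4 leukocyte markers (1.59) were called higher. The part of these cells was not tested. Agr2, a disulfide isomerase needed for mucin folding, fell from 386 ± 568 to 58.5 ± 67.9 CPM (adjusted p = 0.0115). Creb3l1 fell from 99.7 ± 23.5 to 32.2 ± 3.96 CPM (adjusted p = 0.00453). Of the club cell markers 13 were tested, with 2 called higher, Cyp4b1 and Gstm2, a glutathione transferase, and 0 called lower.

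In Foxa1-floxed organoids Scgb1a1 had opposite signs in different lines, with no effect past the threshold. Line 1552A held 3125 and 5603 reads with vehicle and 1286 and 1722 with 4-OHT, or 117 and 205 against 45.9 and 52.7 CPM. Line 1552B held 86 and 37 reads with vehicle and 138 and 63 with 4-OHT. Line 1552C held 11 and 48 with vehicle and 142 and 101 with 4-OHT. The 4-OHT libraries lay below vehicle in line 1552A, as for 18.6% of genes, and above vehicle in line 1552C, as for 19.6% of genes, and they overlapped in line 1552B.

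The pooled Scgb1a1 level with 4-OHT was 3.26-fold lower in line 1552A (95% exact counting interval 3.12 to 3.40). It was 1.73 times the vehicle level in line 1552B (1.37 to 2.18) and 3.47 times in line 1552C (2.60 to 4.70). Over all 3 lines the pooled level was 2.79-fold lower, with 8728 of the 8910 vehicle counts in line 1552A. In the fit across the 3 lines the log2 change was 0.19 ± 0.55 (adjusted p = 0.928), and from -0.17 to 0.61 on leaving out single libraries. Line by line, in the added analysis, it was -1.71 ± 0.55 in 1552A (adjusted p = 0.168, with 1.08% of genes called), 0.81 ± 0.59 in 1552B (adjusted p = 1, 0.0514% called) and 1.83 ± 0.63 in 1552C (adjusted p = 0.810, 0.0171% called). The test that the 3 lines share 1 effect gave an unadjusted p of 0.00198 and an edgeR adjusted p of 0.255, with 0.0286% of genes called, so the difference between lines did not pass.

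Scgb3a1 lay on the other side of vehicle from Scgb1a1 in line 1552A. It held 7 and 74 reads with vehicle and 242 and 149 with 4-OHT there, 18 and 38 against 75 and 27 in line 1552B, and 1 and 10 against 9 and 5 in line 1552C. In line 1552A both 4-OHT libraries were above both vehicle libraries, as for 22.3% of genes, and the groups overlapped in the other lines. The pooled ratio in line 1552A was 4.30 (95% exact counting interval 3.38 to 5.53), and it was 2.38 without vehicle replicate 1 and 24.6 without vehicle replicate 2. The ratio was 1.93 in line 1552B (1.38 to 2.72) and 1.07 in line 1552C (0.453 to 2.61). Across lines the log2 change was 1.34 ± 0.55 (adjusted p = 0.381).

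Scgb3a2 had 2 reads in the 6 vehicle libraries together, both in replicate 2, and 41 reads in the 6 4-OHT libraries. Of the 41 reads 35 came from 4-OHT replicate 2, of line 1552A, and the other libraries held 0 to 3. The ratio of pooled levels was 18.9 (95% exact counting interval 4.92 to 162), and the log2 change 3.71 ± 1.11 (adjusted p = 0.220). Without that library the log2 change was 1.70 and the adjusted p 0.620. Of the 3 genes 0 were called in Foxa1-floxed organoids by edgeR at the chosen settings or by DESeq2, where edgeR called 0.0118% of 16887 genes. At an unadjusted p under 0.05 edgeR counted 2 of the 3, Scgb3a1 and Scgb3a2, and 11.4% of all genes. Without the filter on low counts edgeR called Scgb3a1 (adjusted p = 6.09e-06) and Scgb3a2 (adjusted p = 0.000597). Their log2 changes hardly moved, at 1.34 and 3.69. The share of all genes called in that fit is not printed here, so these calls cannot be set against it. Of 14 tested genes of airway mucus and surface fluid 12 had a fitted change above 0, beside 51.9% of all genes. By edgeR 0 of them were called in either direction, and their median log2 change was 0.52 (all genes 0.01). Their list's summed level did not rise with them. It went from 2505 to 3630 CPM with vehicle to 932 to 2090 CPM with 4-OHT in line 1552A. In line 1552C it went from 439 to 488 CPM to 309 to 346 CPM. The groups overlapped in line 1552B, at 436 to 707 and 562 to 646 CPM.

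**Figure D2:**
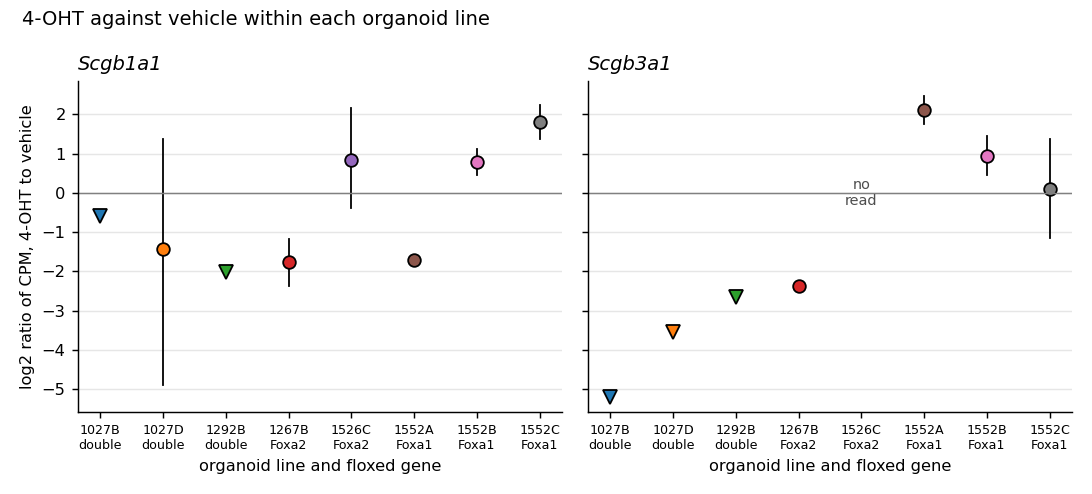
Pooled ratio of CPM with 4-OHT to vehicle within each organoid line, on a log2 scale, for Scgb1a1 and Scgb3a1; bars are 95% exact counting intervals and triangles are upper bounds where no read was left with 4-OHT. Scgb3a1 lies below 0 in the 3 double-floxed lines and in 1267B and above 0 in the 3 Foxa1-floxed lines, from 1.07 to 4.30 times vehicle, while Scgb1a1 goes from 3.26-fold lower in 1552A to 3.47 times vehicle in 1552C.

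The effects of 4-OHT were then compared between genotypes, on the 30 organoid libraries summed to 16 totals per line and treatment. The Scgb3a1 effect was lower in double-floxed than in Foxa1-floxed organoids (fitted log2 difference -10.36 ± 1.09, adjusted p = 0.0215). Libraries of these genotypes shared no title prefix, so genotype and prefix cannot be told apart in this difference. The fitted size depends on how 0 counts are handled and is not a bound. In pooled reads Scgb3a1 was at least 36.6-fold lower with 4-OHT in line 1027B, at least 11.7-fold in 1027D and at least 6.27-fold in 1292B, beside ratios of 1.07 to 4.30 in the Foxa1-floxed lines. Scgb3a1 was 1 of 293 genes called, or 1.54% of 19085. The call was lost without line 1027B (adjusted p = 0.0571), without line 1552B (0.0903) and without line 1552C (0.0523). Creb3l1 and Upk3a were also called lower in this comparison (adjusted p = 0.00995 and 0.0214).

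The Scgb3a1 effect did not pass between double-floxed and Foxa2-floxed organoids (-6.75 ± 1.45, adjusted p = 0.271), where 0.194% of genes were called. DESeq2 called this difference (adjusted p = 0.0228), and so did edgeR without the filter on low counts (adjusted p = 0.0485). Shares of all genes called in those fits are not printed here. Between Foxa2-floxed and Foxa1-floxed organoids the difference was -3.61 ± 0.73 with adjusted p = 0.977. By edgeR 0.00% of genes were called there, 733 genes had an unadjusted p under 0.05 and DESeq2 called 0 of the 3 secretoglobins. For Scgb1a1 the 3 differences had adjusted p of 0.781 (double-floxed against Foxa2-floxed), 0.371 (double-floxed against Foxa1-floxed) and 1 (Foxa2-floxed against Foxa1-floxed).

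In the hairpin experiment Scgb3a1 was higher with vehicle in the libraries labelled shNKX2-1 than in shScramble, and fell to 0 reads with 4-OHT. Nkx2-1 itself, the targeted gene, stood at 426 ± 2.57 CPM in shScramble and 315 ± 49.8 CPM in shNKX2-1 vehicle libraries and did not pass the test (n = 2 and 2; adjusted p = 0.755). With 4-OHT it stood at 383 ± 34.5 and 194 ± 18.1 CPM (adjusted p = 0.0763). Counts over the whole gene thus do not by themselves show the knockdown at the threshold, and directions below are those of the libraries labelled shNKX2-1. Foxa2 fell with 4-OHT under both hairpins, from 82.8 ± 8.57 to 2.42 ± 0.224 CPM with shScramble (adjusted p = 0.00227) and from 76.2 ± 13.5 to 1.11 ± 1.11 CPM with shNKX2-1 (adjusted p = 0.00175). Foxa1 stood at 27.1 ± 7.10 and 19.3 ± 1.10 CPM with shScramble (adjusted p = 0.469) and at 30.7 ± 4.83 and 20.8 ± 1.56 CPM with shNKX2-1 (adjusted p = 0.236), so its decrease was not called in these libraries.

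With vehicle, the libraries labelled shScramble held 0 and 2 reads of Scgb3a1 and those labelled shNKX2-1 held 323 and 571. In CPM these are 0 and 0.135 against 23.6 and 35.7, and the groups did not overlap. The ratio of pooled levels was 479 (95% exact counting interval 132 to 3961). It was 223 without shScramble replicate 1, and without shScramble replicate 2 no read is left to divide by. Scgb3a1 passed the filter on low counts only through these shNKX2-1 vehicle libraries, the group then tested as high. Scgb3a1 was higher in the shNKX2-1 libraries (log2 change 8.69 ± 0.78, adjusted p = 0.0156). It was 1 of 34 genes called, or 0.235% of 14465, and 23.9% of genes had both shNKX2-1 libraries above both shScramble libraries. Leaving out any 1 of the 4 libraries ended the call, with adjusted p from 0.0789 (without shNKX2-1 replicate 1) through 0.135 (shNKX2-1 replicate 2) and 0.15 (shScramble replicate 2) to 0.178 (shScramble replicate 1). The fitted log2 change in these fits ran from 7.69 to 11.81. These fits leave 1 library in a group and take its spread from the other groups. The unmodified vehicle libraries of line 1027B, in a separately normalized table, held 5.22 and 0.778 CPM, above both shScramble libraries and below both shNKX2-1 libraries.

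With 4-OHT this expression was gone. The 2 shNKX2-1 4-OHT libraries held 0 reads of Scgb3a1, at least 271-fold less than their vehicle libraries (same floor), and the decrease passed the test (adjusted p = 0.00297). The tested decrease thus starts from the group that brought the gene through the filter. Calls reached 6.35% of genes, and 26.2% had both 4-OHT libraries below both vehicle libraries. Without shNKX2-1 4-OHT replicate 2, the library rich in mitochondrial transcripts, the adjusted p was 0.00369, and it stayed under 0.05 in all 4 fits that left out 1 library. With shScramble Scgb3a1 was at 2 reads with vehicle and 0 with 4-OHT (adjusted p = 0.551, with 4.33% of genes called). Under 4-OHT neither hairpin left a read, so no difference between hairpins was detectable there, a comparison in which 1.58% of genes were called.

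The difference of the 4-OHT effects between hairpins had no finite fit in edgeR for Scgb3a1, with both 4-OHT groups at 0 (adjusted p = 1). By edgeR 0.00% of genes were called for it, 782 had an unadjusted p under 0.05, and DESeq2 called 1 of the 3 secretoglobins, Scgb3a1 (adjusted p = 0.0492). With no read in either 4-OHT group, this difference only repeats the vehicle difference between hairpins with its sign turned. The DESeq2 call is therefore no separate result on the effect of 4-OHT.

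Scgb1a1 lay on the opposite side in vehicle, with fewer reads in shNKX2-1 than in shScramble libraries. It held 11 and 2 reads in shScramble vehicle, 2 and 0 in shNKX2-1 vehicle and 0 in all 4 4-OHT libraries. Its shScramble level was at least 4.34-fold lower with 4-OHT. The shNKX2-1 vehicle level was 6.07-fold below the shScramble vehicle level (95% exact counting interval 1.37 to 55.4). The 2 groups overlapped, at 0 and 0.146 against 0.135 and 0.648 CPM, and 11 of the 13 shScramble reads were in 1 library. Scgb1a1 did not pass the filter. Scgb3a2 had 0 reads in the 8 libraries, which allows up to 0.111 CPM in shNKX2-1 4-OHT and less in the other groups.

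**Figure D3:**
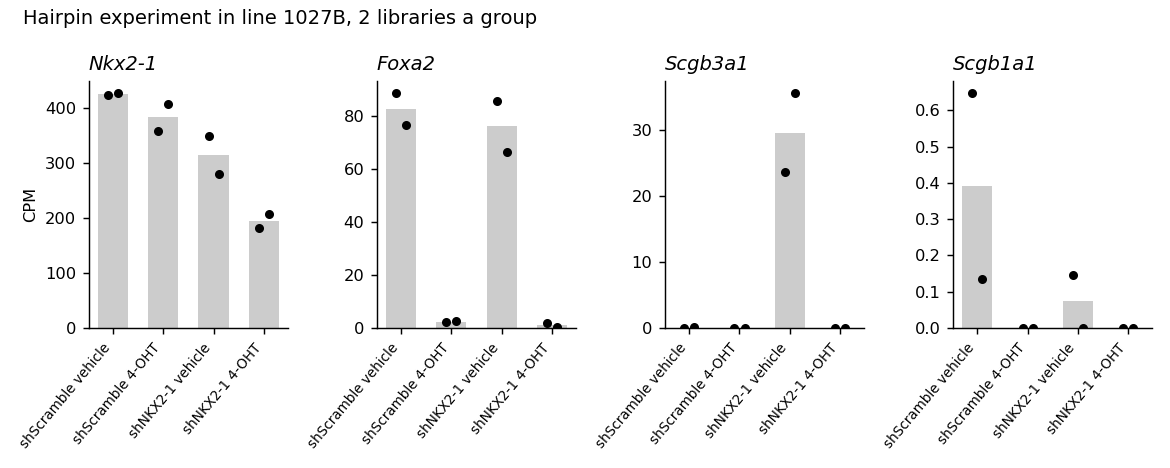
Level of Nkx2-1, Foxa2, Scgb3a1 and Scgb1a1 in the 4 groups of the hairpin experiment, in TMM-scaled CPM on linear axes that differ between panels; bars are group means and points the 2 libraries. Scgb3a1 is present in shNKX2-1 vehicle (23.6 and 35.7 CPM) and at 0.135 CPM or less in the other libraries, while Nkx2-1 itself stands at 279 to 350 CPM in shNKX2-1 vehicle and 424 to 427 CPM in shScramble vehicle.

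With shScramble, 4 of 11 tested genes of airway mucus and surface fluid were called lower with 4-OHT and 0 higher, beside 4.33% of all genes, with a median log2 change of -2.25 (all genes 0.02). Their summed level lay on the other side, at 1379 and 949 CPM with vehicle and 2290 and 1296 CPM with 4-OHT, and 4 of 10 alveolar type 2 markers were also called lower. Muc5b fell from 305 ± 27.4 to 31.6 ± 2.03 CPM (adjusted p = 0.00842). Of the 12 club cell markers tested, 3 were called lower and 0 higher, and Cbr2, a carbonyl reductase of club cells, fell from 42.8 ± 40.8 to 0.412 ± 0.237 CPM (adjusted p = 0.00685).

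The mucus genes lay on the same side as Scgb3a1 in these libraries without passing the test in vehicle. Of 11 tested, 10 had a fitted value above 0 for shNKX2-1 against shScramble, beside 51.0% of all genes. Their median log2 change was 2.60 (all genes 0.01), and 0 were called. Clca1 and Tff2, of the same list, had reads in the shNKX2-1 vehicle libraries alone. Either of them, where tested, passed the filter only through that group. Its direction was thus fixed in advance, here and in the fall with 4-OHT that follows. With 4-OHT in shNKX2-1 libraries 7 of the 11 were called lower and 0 higher, beside 6.35% of all genes, with a median of -6.17. Their summed level was 3176 and 3816 CPM with vehicle and 1915 and 616 CPM with 4-OHT, the last in the library with 11.7% mitochondrial counts. Of 10 alveolar type 2 markers 4 were called lower as well (median -1.82). The part of that library and of those cells in the change was not tested. Muc5b fell from 1843 ± 593 to 25.6 ± 17.2 CPM (adjusted p = 0.00124) and Muc5ac from 457 ± 74.2 to 6.32 ± 3.20 CPM (adjusted p = 0.00109). Spdef, a transcription factor of goblet cells, fell from 8.78 ± 8.18 to 0.0676 ± 0.0956 CPM (adjusted p = 0.0224). Of the club cell markers 12 were tested there, with 2 called higher and 2 lower. Gstm2 rose from 992 ± 107 to 2819 ± 653 CPM (adjusted p = 0.0144), and Cbr2 fell from 7.83 ± 2.90 to 0.0338 ± 0.0478 CPM (adjusted p = 0.0143).

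The line with the most Scgb1a1 was also the line in which the most club cell markers peaked. Among the vehicle libraries of the 8 lines, 6 of 16 markers had their highest mean in 1552A, which were Aldh1a7, Aox3, Cyp2f2, Cyp4b1, Hp and Por. The share of all genes that peaked in each line is not printed here, so counts of peaks cannot be set against it. Cyp2f2, a cytochrome P450 of club cells, averaged 260 CPM in 1552A and 0.779 CPM in 1552C, and Aox3, an aldehyde oxidase, 52.6 CPM in 1552A and 0.222 CPM in 1552C. Line 1267B, which held the most Scgb3a1, had the highest mean of 3 of the 16, Cbr2 at 45.7 CPM, Upk3a at 39.4 CPM and Pon1, a serum esterase, at 0.729 CPM. The summed club cell level was 3528 and 5205 CPM in the vehicle libraries of 1552A but higher, 5417 and 6151 CPM, in 1552B, where Scgb1a1 was at 2.84 and 1.34 CPM. High Scgb1a1 thus went with some markers and not with the sum. Line 1552A was also high in markers of another cell type. Its mean summed alveolar type 2 level, 18903 CPM, was the highest of the 8 lines with vehicle, followed by 15567 CPM in 1027D. Sftpb, Sftpa1, Sftpd, Abca3, Slc34a2 and Napsa peaked in 1552A, and Sftpc, Lamp3, Cxcl15, Hc and Etv5 in other lines. The peaks in 1552A were therefore not particular to club cell markers.

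Line 1526C, the line without Scgb3a1, held Scgb3a2 at 0.674 CPM, the highest of the 8 lines with vehicle, with Cyp2f2 at 0.707 CPM and Cbr2 at 0.0717 CPM. The lines were sequenced under different title prefixes, with the libraries of 1526C and of all Foxa1-floxed lines under 19659 alone, so line and prefix cannot be told apart for these 4 lines.

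**Figure D4:**
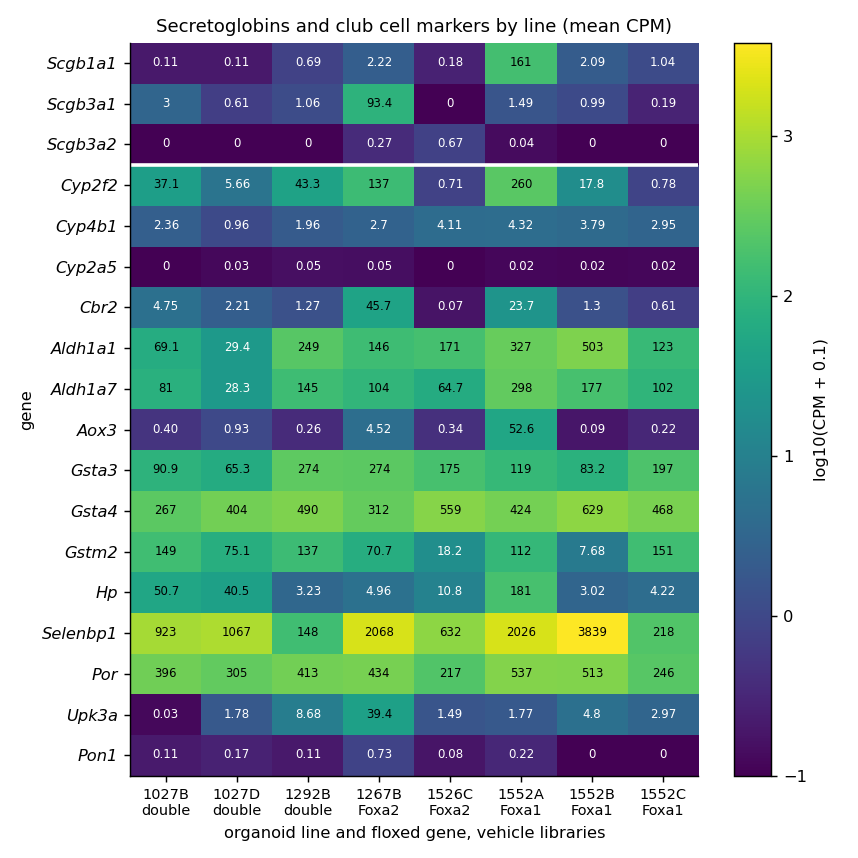
Mean CPM of the 3 secretoglobins (above the white rule) and of 15 club cell markers in the vehicle libraries of each organoid line, coloured by log10(CPM + 0.1), with the value printed in each cell. Scgb1a1 peaks in 1552A, as do 6 of the 16 listed club cell markers, and Scgb3a1 in 1267B, as do 3 of them. The rest peak in other lines, such as Aldh1a1, Gsta4 and Selenbp1 in 1552B.

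Of 69 genes with a secretoglobin symbol in the annotation, 5 had a read in the double-floxed table, 4 in the hairpin table and 13 in the single-floxed table. Scgb1c1 was the only one beyond the 3 members to pass the filter in any fit, and it held at most 1.08 CPM. It was not called in any of the comparisons in which it was tested, with the smallest adjusted p, 0.0915, for double-floxed against Foxa1-floxed effects.

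Across all 38 libraries the gene most like Scgb1a1 was Spats2, with Pearson's r = 0.85 between log2 CPM values, followed by Slc25a35 (0.80), Abhd6 (0.79), Mapk9 (0.79) and Ankle2 (0.78). For Scgb3a1 it was Dnajc10, a disulfide reductase of the endoplasmic reticulum (r = 0.83), followed by 1700066B19Rik (0.82), Pcgf2 (0.78), Tnfrsf11b (0.77) and Spop (0.76). For Scgb3a2 the highest was Dll4, a Notch ligand, at r = 0.63, over mostly 0 counts. The libraries share 8 lines, and within lines the likeness of Spats2 to Scgb1a1 was r = 0.09, while that of Dnajc10 to Scgb3a1 was r = 0.69.

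The nearest tested neighbour of Scgb3a1 was not called in the comparisons that follow. Cnot6, whose nearer end lies 6385 bases after it and which encodes a deadenylase, had a log2 change of -0.05 ± 0.17 in double-floxed organoids (adjusted p = 0.918), and 0.05 ± 0.33 for shNKX2-1 against shScramble in vehicle (adjusted p = 1). Ahnak, 6722 bases from Scgb1a1, rose in double-floxed organoids (log2 change 1.18 ± 0.20, adjusted p = 0.0191).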

How the data were processed

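RNA was read from 38 libraries. The authors deposited unnormalized counts of reads for each Ensembl gene. Per the submitters' processing notes the tools were STAR (2.7.6a), featureCounts (1.5.1) and DESeq2, on build GRCm38. How strand and multi-mapped reads were handled, and which annotation release was used, the sources used here leave out. Symbols and coordinates came from GENCODE on GRCm38. Groups came from genotype, treatment and hairpin labels, and 0 columns belonged to no sample.

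Genes were tested in R 4.3.3 with edgeR 4.0.16 (limma 3.58.1 loaded; filterByExpr, TMM, quasi-likelihood F test, adjusted p by Benjamini-Hochberg over every gene tested, threshold 0.05), with organoid line as a replicate block and both single-floxed genotypes in 1 fit. Effects were compared between genotypes on counts summed per line and treatment. The hairpin fit had 4 group means. Pairing by line rests on shared lines; same-line deviations correlated with r of 0.155 to 0.861. Likeness used log2 CPM with a prior count of 2 over genes of mean log2 CPM of at least 1. Alternatives were RLE, DESeq2 1.42.0, no filter, no replicate block, line and library title prefix as block, sums per line, and leaving out libraries, lines or the other genotype. Scripts were tested on simulated data.

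Named were the 3 genes in every comparison, other secretoglobins that passed the filter, Foxa1, Foxa2 and Nkx2-1, up to 3 called genes per list with the smallest adjusted p, the 5 most alike genes and the nearest tested neighbours; not all are printed. The members, lists and tests were chosen with earlier results of these data known. Effects per line were added after seeing the data. The values of 1 club cell marker, counted in its list, are not reported here.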

Additional observations from a re-analysis of the deposited data

Results flagged for a closer look

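Scgb3a1 in double-floxed vehicle replicate 1 stood at 5.22 CPM, far from the other 4 libraries of its group, the next of which held 1.06 CPM. Scgb3a2 in Foxa1-floxed 4-OHT replicate 2 stood at 1.07 CPM, with the next library at 0.109 CPM. Scgb3a2 in Foxa1-floxed vehicle replicate 2 stood at 0.0733 CPM, which is 2 reads, with the other 5 libraries at 0. Values far from the rest were looked for in 18 groups of 4 to 6 libraries, and chance marks about 1 in 20. The 4-OHT effect on Scgb3a1 differed between double-floxed and Foxa1-floxed organoids, which shared no title prefix (fitted log2 difference -10.36, adjusted p = 0.0215).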

How the results depend on the processing

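Of the 3 genes, the double-floxed comparison called 0 in the chosen setting and 1, Scgb3a1, without the filter on low counts, with DESeq2 and with line and title prefix together as block. Without the filter, 2 genes were called in Foxa2-floxed (Scgb1a1 and Scgb3a1) and 2 in Foxa1-floxed organoids (Scgb3a1 and Scgb3a2), against 0 each. The shares of all genes called without the filter or by DESeq2 are not printed here. The difference between double-floxed and Foxa2-floxed effects gave 1 call without the filter and 1 with DESeq2, against 0. The difference between hairpins gave 1 with DESeq2, against 0, a call that repeats the difference between the vehicle libraries. The difference between double-floxed and Foxa1-floxed effects gave 0 calls without line 1027B, 1552B or 1552C, against 1. Leaving out 1 library at a time gave 0 calls for shNKX2-1 against shScramble in vehicle, against 1. Scgb1a1 turned in sign where no call was at stake. In Foxa1-floxed organoids its log2 change was -1.53 with no replicate block, -0.17 without line 1552B, -0.57 without line 1552C and -0.17 to 0.61 on leaving out single libraries. Without line 1267B it was 0.82 in Foxa2-floxed organoids, and its difference between Foxa2-floxed and Foxa1-floxed effects 0.59. With no replicate block Scgb3a1 did not pass the filter in double-floxed organoids, and 0 genes were called within any genotype, as with the block. The filter is set from the fitted design, which changes when the block is left out. In all, 216 alternative values of single genes kept their direction and side of the threshold, 10 gained a call, 7 lost one and 9 turned in sign. Depth limits Scgb3a2, and Scgb1a1 in double-floxed cells, to a few reads per library.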
